A study of Mus musculus with 9 samples.

Results

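Cholesterol is made in the retina itself and is also taken up from the circulation as lipoproteins. The mRNA levels of 8 genes of this metabolism were followed in mouse retina after retinal vein occlusion (RVO). The genes were chosen by symbol, and all 8 were listed among the 48587 genes of the table. Hmgcs1, Idi1, Fdft1, Sqle and Lss encode enzymes of the synthesis pathway. Srebf2 encodes SREBP2, the transcription factor that turns on this pathway when cell sterols are low. Abca1 encodes a pump that moves cholesterol out of cells, and Ch25h encodes the enzyme that makes 25-hydroxycholesterol. None of the 8 is a receptor for cholesterol uptake, so the uptake genes are described below from a list of the wider pathway.

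RNA was sequenced from 9 samples of C57BL/6J mice 12 weeks old, each a pool of 6 retinas. In 3 RVO samples, all large veins of one eye had been closed by laser (50 mW, 50 µm, 2.5 s) after intraperitoneal eosin Y, a photosensitizer, at 200 mg/kg. The 3 control samples came from the fellow eyes, which had received the same number of laser spots between the large vessels, and both groups were taken at day 2. The 3 untreated samples came from mice without laser treatment, and the sources do not state whether these mice had received eosin Y or anesthesia. The value n = 3 thus counts pools and not mice, and RVO and control eyes share the mice, the eosin Y and the laser injury of the retina. Total counts were 12377572 to 15245869 per untreated sample, 18897218 to 23419497 per control sample and 21022997 to 28993921 per RVO sample.

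In the synthesis pathway, HMG-CoA synthase 1 (Hmgcs1) makes HMG-CoA, the precursor of mevalonate. Isopentenyl diphosphate isomerase (Idi1) interconverts the isoprene units, squalene synthase (Fdft1) joins farnesyl units to squalene, squalene epoxidase (Sqle) oxidizes it and lanosterol synthase (Lss) closes the rings. When sterols are low, SREBP2 is cut from its membrane anchor and binds sterol regulatory elements (SRE) in promoters of these genes, often beside a binding site of the factor NF-Y. Oxysterols such as 25-hydroxycholesterol hold SREBP2 in the membrane and activate the LXR receptors, of which Abca1 is a classical target. Ch25h is known as a gene that macrophages and other cells turn on in inflammation.

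The promoters are shown because SREBP2 is known to act there, and because Hmgcs1 and Ch25h had the largest fall and the largest rise of the 8 genes with TMM scaling in RVO eyes. RefSeq (GRCm38.p6) gave 250 bases before the start of 6 of them, and Sqle and Fdft1 were not matched. Capitals mark matches on either strand of an SRE-like motif (TCACNCCAC), an NF-Y box (CCAAT, here always on the strand opposite to the printed one) or an E-box (CACGTG), and no match overlapped another. Sequences run 5′ to 3′ on the strand of the gene, from chr13:119690101-119690350 (plus strand), chr10:76531355-76531604 (plus strand), chr4:53159896-53160145 (minus strand) and chr19:34475149-34475398 (minus strand):
Hmgcs1: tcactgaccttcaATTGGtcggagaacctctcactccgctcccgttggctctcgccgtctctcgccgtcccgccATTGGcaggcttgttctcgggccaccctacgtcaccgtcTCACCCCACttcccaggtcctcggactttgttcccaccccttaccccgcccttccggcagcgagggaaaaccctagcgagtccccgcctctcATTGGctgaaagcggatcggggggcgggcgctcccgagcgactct
Lss: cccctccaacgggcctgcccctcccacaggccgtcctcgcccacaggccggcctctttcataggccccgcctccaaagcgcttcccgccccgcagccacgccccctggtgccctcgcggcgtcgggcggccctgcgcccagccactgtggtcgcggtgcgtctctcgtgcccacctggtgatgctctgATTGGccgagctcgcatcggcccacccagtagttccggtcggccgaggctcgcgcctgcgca
Abca1: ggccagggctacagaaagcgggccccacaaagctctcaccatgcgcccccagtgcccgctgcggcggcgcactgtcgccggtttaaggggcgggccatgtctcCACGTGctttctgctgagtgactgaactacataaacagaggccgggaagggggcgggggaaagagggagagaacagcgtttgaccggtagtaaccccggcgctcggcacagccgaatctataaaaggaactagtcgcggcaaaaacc
Ch25h: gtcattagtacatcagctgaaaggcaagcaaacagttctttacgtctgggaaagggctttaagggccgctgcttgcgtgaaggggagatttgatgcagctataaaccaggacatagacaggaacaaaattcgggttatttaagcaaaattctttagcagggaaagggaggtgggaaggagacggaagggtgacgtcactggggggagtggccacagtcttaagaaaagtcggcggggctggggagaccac
With the last base before the start counted as -1, the SRE-like match of Hmgcs1 lay at positions -137 to -129. It stood between NF-Y boxes at -176 to -172 and -45 to -41, and another NF-Y box lay at -237 to -233. Lss had 1 NF-Y box at -62 to -58, Abca1 had an E-box at -147 to -142, and these letters were not in the window of Ch25h. Among the 2 promoters not printed, Idi1 had NF-Y boxes at -45 to -41 and -14 to -10 and Srebf2 had one at -135 to -131. Of 32851 promoters of the same length, 346 (1.05%) held the SRE-like motif, 33.8% an NF-Y box and 6.02% an E-box. A match describes letters only and is not a measured binding site. Only exact letters were searched, so a window without a match can still hold a similar element. The window of Srebf2 holds TCACCCCAT, which differs from the SRE-like motif in the last base.

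**Figure D1:**
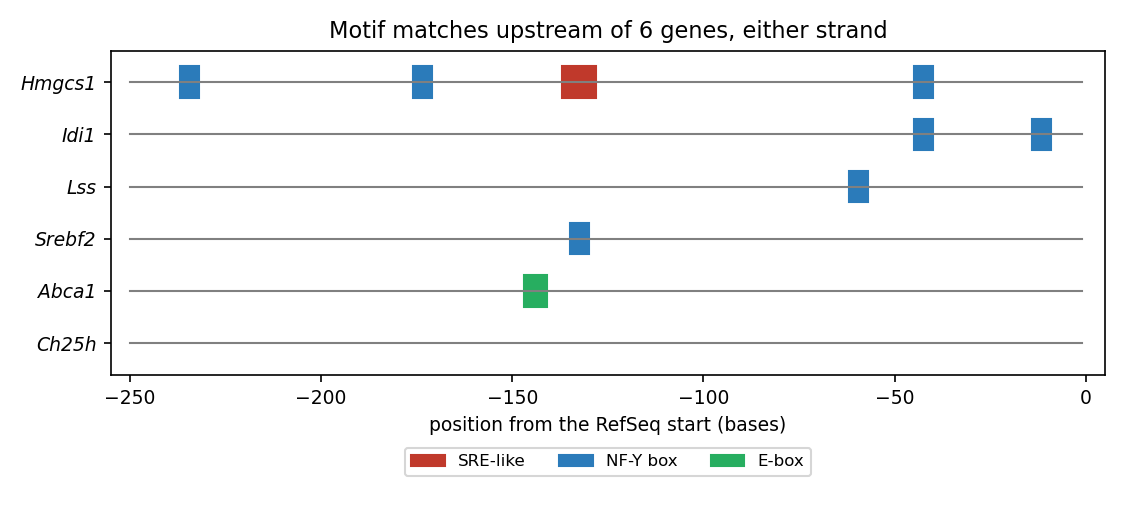
Positions of motif matches in the 250 bases before the RefSeq start of 6 genes, in bases from the start (x axis), with 1 gene per line. Red boxes are SRE-like matches, blue boxes NF-Y boxes and green boxes E-boxes on either strand. Hmgcs1 is the gene with an exact SRE-like match, at -137 to -129, and Ch25h has no box.

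Levels are given as CPM, a gene's counts per 1e6 counted reads of the sample, after scaling by TMM factors over the 9 samples. Fold changes come from edgeR's quasi-likelihood test on the counts, fitted for each pair of groups over all genes, and a gene counts as changed where its p, adjusted after Benjamini and Hochberg, is under 0.01. Against untreated eyes, 1 of the 8 genes rose in RVO eyes and 3 fell, where 27.4% of 16380 tested genes were higher and 24.6% lower. In control laser-treated eyes 2 of them rose and 4 fell, where 27.2% of 16066 tested genes were higher and 25.2% lower. Between RVO and control eyes, 0 of the 8 genes passed this threshold, where 2.70% of 16874 tested genes were higher and 0.634% lower. All 8 genes passed the filter on low counts in each comparison. The samples of both groups were fully separated in 5 of the 8 genes between RVO and untreated eyes, as in 73.4% of all genes, and in 6 of the 8 between control and untreated eyes, as in 70.0%. What follows is the pattern of each gene. With scaling by library size only, the median over all genes of the log2 fold change against untreated eyes was higher by 0.21 (RVO) and 0.17 (control). The share of changed genes that were higher was then 68.5% and not 52.7% in RVO eyes, and 70.4% and not 51.9% in control eyes.

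The first enzyme, Hmgcs1, had 198, 188 and 182 CPM in the 3 untreated samples, 131, 128 and 126 CPM in the control samples and 82.5, 108 and 87.2 CPM in the RVO samples. The 3 groups did not overlap, with the control samples in the middle. Its level was 0.501 of the untreated level in RVO eyes (log2 fold change -0.997 ± 0.11 SE, adjusted p = 0.000109 in edgeR). In control eyes it was 0.688 of the untreated level (-0.54 ± 0.05 SE on the log2 scale, adjusted p = 2.22e-06 in edgeR). Both falls passed the threshold with every alternative tried, but with GC and length trends removed they were smaller, at -0.64 in RVO and -0.21 in control eyes. Between RVO and control eyes, the log2 fold change was -0.47 (standard error 0.10, edgeR's adjusted p = 0.0158). The gene lies on chr13:119690379-119708260 on the plus strand (GRCm38, GENCODE vM21), where Gm48342 overlaps it on the opposite strand, and 11.6% of its 50-base windows also occurred on the opposite strand of another gene.

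Squalene synthase, Fdft1, had the same order of groups. It had 66.3, 68.1 and 68.2 CPM in untreated, 57.0, 54.1 and 53.7 CPM in control and 43.4, 49.9 and 40.6 CPM in RVO samples. Again the 3 groups did not overlap. Fdft1 fell by 0.57 on the log2 scale in RVO eyes (standard error 0.09, edgeR's adjusted p = 0.000787) and by 0.28 in control eyes (standard error 0.06, adjusted p = 0.000733). With scaling by library size only, the value in control eyes was -0.11 (edgeR's adjusted p = 0.136, range over its alternatives 3.54e-05 to 0.136), while the fall in RVO eyes was called under each alternative, at -0.35 with library size only. With GC and length trends removed it was -0.76 in RVO and -0.42 in control eyes, larger than that of Hmgcs1. Fdft1 lies on chr14:63145150-63179578 on the minus strand and overlaps Ctsb on the opposite strand. Of its 50-base windows, 17.2% also occurred on the opposite strand of another gene and 9.38% were shared with Gm6781. Whether strand was used in counting is not stated, so its level is uncertain to that extent.

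The next enzyme, Sqle, did not move detectably. It had 66.5, 60.9 and 66.1 CPM in untreated, 64.4, 69.8 and 62.5 CPM in control and 60.4, 67.4 and 63.8 CPM in RVO samples, and all groups overlapped. The log2 fold change was 0.02 in RVO eyes (95% interval -0.16 to 0.19) and 0.04 in control eyes (-0.10 to 0.18). These intervals do not hold the fall of Hmgcs1 or that of Fdft1 in the same comparison. Sqle lies on chr15:59315077-59331192 on the plus strand, and none of its 50-base windows were shared with another gene on its strand.

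Lanosterol synthase, Lss, had 68.2, 68.9 and 67.9 CPM in untreated, 60.9, 55.5 and 54.1 CPM in control and 60.5, 55.4 and 53.6 CPM in RVO samples. Both laser-treated groups lay below every untreated sample and overlapped each other. Lss fell by 0.25 on the log2 scale in control eyes (standard error 0.06, edgeR's adjusted p = 0.00297), and its value of -0.24 in RVO eyes did not pass the threshold (standard error 0.08, adjusted p = 0.0212). The difference between RVO and control eyes was -0.01 (95% interval -0.19 to 0.18). This call was lost under 6 alternatives. The value was -0.073 with library size only (edgeR's adjusted p = 0.328, range over its alternatives 0.00189 to 0.328), -0.13 with GC and length trends removed (adjusted p = 0.0581) and -0.27 in the fit of all 9 samples (adjusted p = 0.0102). Without untreated replicate 2, control replicate 2 or control replicate 3 edgeR's adjusted p was 0.0108 to 0.0165. Lss lies on chr10:76531588-76557138 on the plus strand.

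Idi1 was near the limit of detection. Its counts were 7, 6 and 12 in untreated, 23, 15 and 15 in control and 23, 30 and 23 in RVO samples. Relative to depth the groups overlapped, with 0.654 ± 0.195 CPM in untreated, 0.809 ± 0.211 CPM in control and 1.01 ± 0.271 CPM in RVO eyes (SD, n = 3). The log2 fold change was 0.62 in RVO eyes (95% interval -0.19 to 1.42) and 0.30 in control eyes (-0.47 to 1.08), so a fall of the size of Hmgcs1 in RVO eyes lies outside the interval. Of its 50-base windows, 17.7% were shared with the genes Gm13502, Gm35570, Gm7654 and Gm8911, and how reads matching several genes were counted is not stated. Its level is therefore uncertain, and it lies on chr13:8885501-8892451 on the plus strand.

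**Figure D2:**
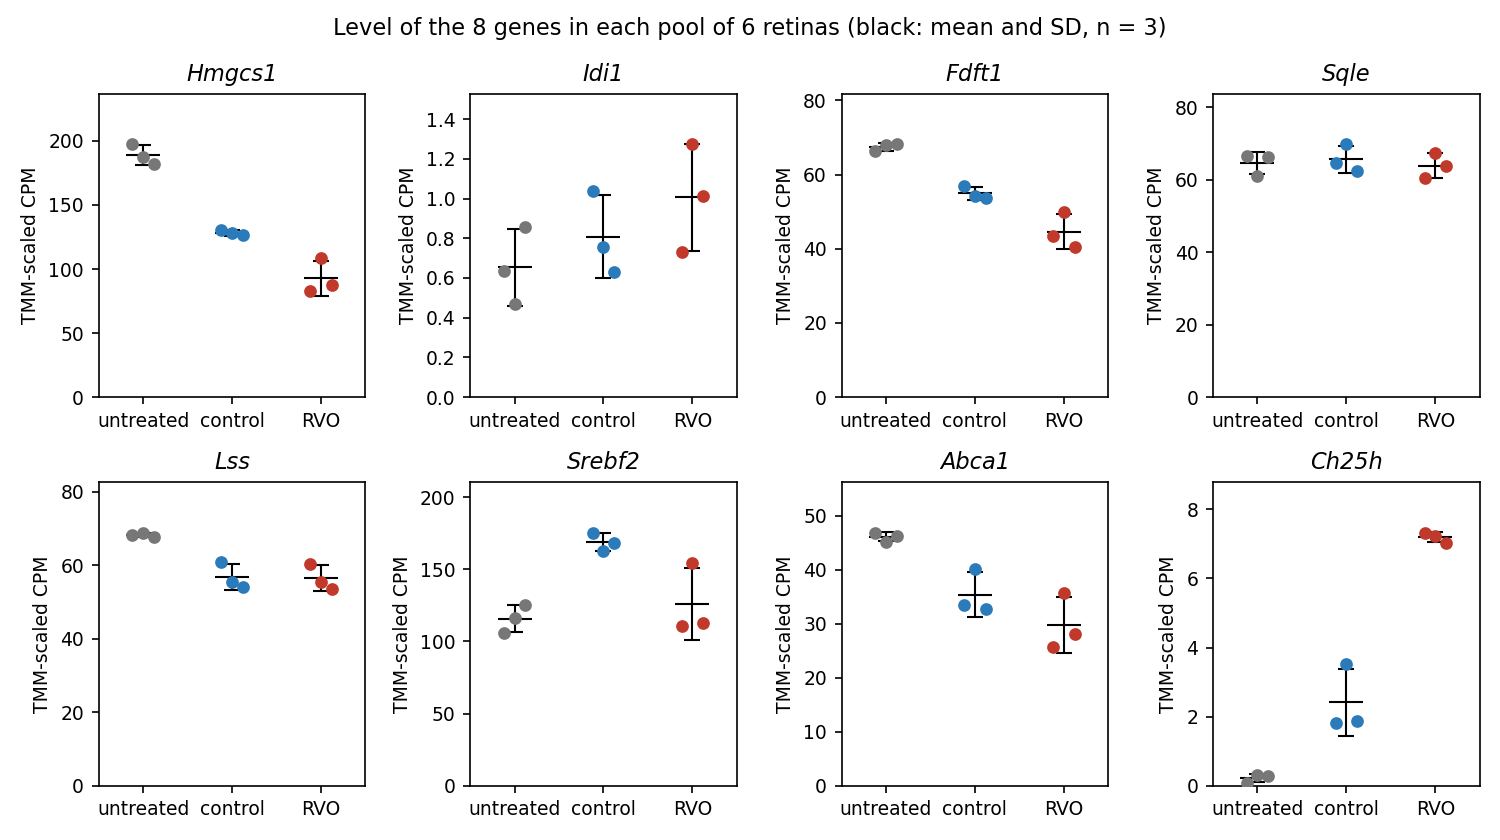
TMM-scaled CPM (y axis, from 0, with its own scale per gene) of the 8 genes in the 3 untreated (grey), 3 control (blue) and 3 RVO (red) samples. Each point is a pool of 6 retinas, and black bars are the mean and SD. Hmgcs1 and Fdft1 step down from untreated to control to RVO eyes, Srebf2 is highest in control eyes, and Ch25h steps up from at most 0.313 CPM in untreated to at least 7.04 CPM in RVO samples.

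Srebf2, the regulator of the pathway, was highest in control eyes. It had 106, 116 and 125 CPM in untreated, 175, 163 and 169 CPM in control and 111, 155 and 113 CPM in RVO samples. Every control sample lay above every sample of the other groups, and RVO and untreated samples overlapped. Srebf2 rose by 0.56 on the log2 scale in control eyes (1.47-fold, standard error 0.06, edgeR's adjusted p = 7.39e-06). For RVO eyes the value was 0.15 (95% interval -0.15 to 0.46, edgeR's adjusted p = 0.341). Tested directly, RVO eyes differed from control eyes by -0.42 (standard error 0.13, edgeR's adjusted p = 0.0389), which did not pass the threshold. After removal of each sample's trends with GC content and transcript length, an alternative chosen after seeing the data, the value in control eyes was 0.07 and no longer called (edgeR's adjusted p = 0.249, range over its alternatives 4.69e-19 to 0.249), and that in RVO eyes was -0.34. RVO replicate 2, at 155 CPM, stood apart from the other RVO samples, and without it the value in RVO eyes was -0.01. Srebf2 lies on chr15:82147181-82205379 on the plus strand and holds the microRNA gene Mir33 in its span, which had 0 counts in all samples. The libraries were made from poly-A RNA, so these 0 counts do not show that the microRNA was absent. The counts measure mRNA, and the cleavage of the protein was not measured.

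The efflux pump gene Abca1 had 46.9, 45.2 and 46.2 CPM in untreated, 33.4, 40.1 and 32.7 CPM in control and 25.6, 35.6 and 28.1 CPM in RVO samples. Untreated samples lay above all others, and control and RVO samples overlapped. Abca1 fell by 0.60 on the log2 scale in RVO eyes (standard error 0.12, edgeR's adjusted p = 0.00275) and by 0.36 in control eyes (standard error 0.09, adjusted p = 0.00239). These calls were less firm than those of Hmgcs1. With library size only the values were -0.39 and -0.19 (edgeR's adjusted p = 0.0169 and 0.0787, with ranges over the alternatives of 2.4e-06 to 0.0231 and 0.000151 to 0.0828), and without any 1 untreated sample or RVO replicate 3 the adjusted p in RVO eyes was 0.0115 to 0.0156. With GC and length trends removed, Abca1 was at -0.35 in RVO and -0.18 in control eyes, both not called. The call in control eyes was also lost in the fit of all 9 samples and without control replicate 3 (edgeR's adjusted p = 0.0231 and 0.0104). Abca1 lies on chr4:53030787-53159895 on the minus strand, and none of its 50-base windows were shared with another gene.

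Ch25h had the largest fold change of the 8 genes and went the other way. Its counts were 1, 4 and 4 in untreated, 40, 70 and 45 in control and 230, 170 and 160 in RVO samples. As CPM these were 0.0908, 0.313 and 0.286 in untreated, 1.81, 3.54 and 1.88 in control and 7.33, 7.22 and 7.04 in RVO samples, so the 3 groups did not overlap. The RVO samples lay close together and the control samples were more spread. Relative to untreated eyes, Ch25h rose 30.2-fold in RVO eyes (4.92 ± 0.29 SE on the log2 scale, adjusted p = 9.21e-06 in edgeR) and 9.90-fold in control eyes (3.31 ± 0.47 SE, adjusted p = 4.61e-05). As untreated samples held only 9 counts in all, the ratios of summed counts relative to depth have wide 95% intervals for counting error alone, 15.8 to 66.6 in RVO and 5.08 to 22.05 in control eyes. The absolute log2 fold change exceeded that of 99.1% of genes tested in either comparison. Between RVO and control eyes the level was 3.01-fold higher (log2 fold change 1.59, 95% interval 0.98 to 2.20), and edgeR's adjusted p of 0.0101 lay just above the threshold. This value was under it with scaling by library size only, without the filter, in the fit of all 9 samples, with DESeq2 and without RVO replicate 2, and the adjusted p ranged from 9.56e-07 to 0.0566 over the alternatives. Ch25h lies on chr19:34473778-34475164 on the minus strand, where Gm26902 overlaps it on the opposite strand (8.22% of 50-base windows).

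**Figure D3:**
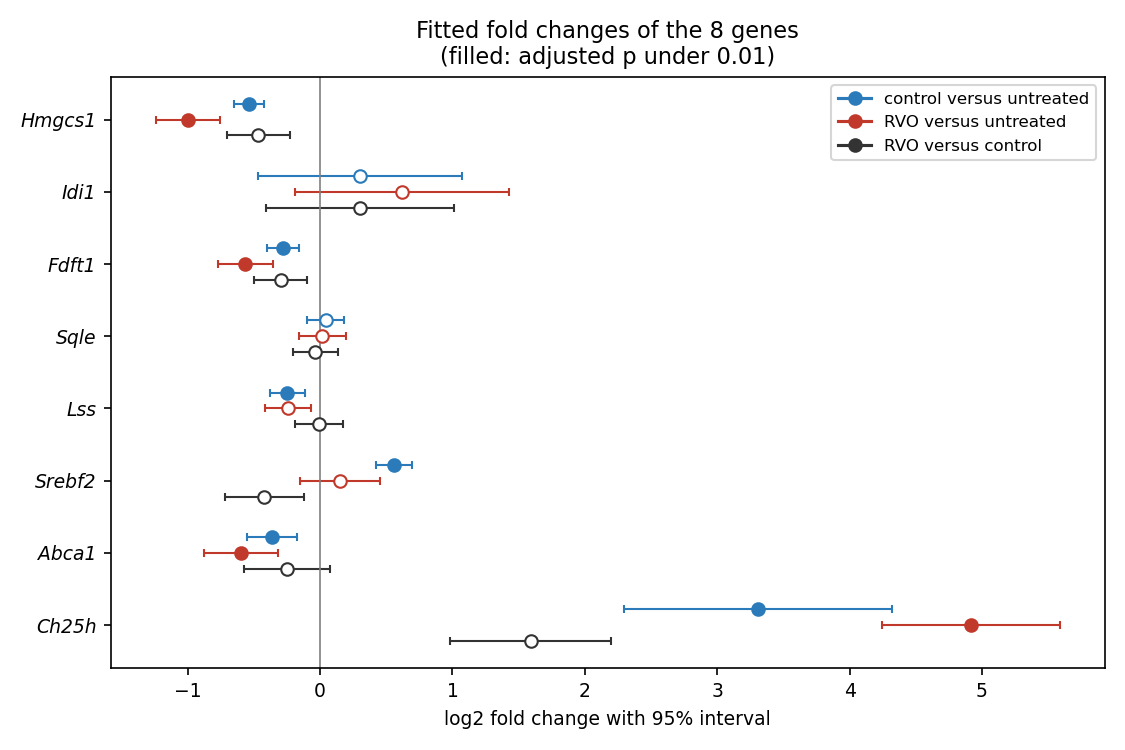
Fitted log2 fold changes (x axis) of the 8 genes with 95% intervals, for control versus untreated (blue), RVO versus untreated (red) and RVO versus control (black). Filled points have an adjusted p under 0.01. The points of Ch25h lie far to the right at 3.31, 4.92 and 1.59, those of Sqle sit at 0, and all points of RVO versus control are open.

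Between RVO and control eyes, 4 of the 8 genes had an unadjusted p under 0.05 in edgeR, Ch25h upward and Hmgcs1, Fdft1 and Srebf2 downward. The same 4 genes had an adjusted p under 0.05, where 34.6% of all tested genes did, 17.5% upward and 17.1% downward, and these were also the 4 whose groups did not overlap, as was the case for 52.5% of all genes. DESeq2's Wald test called Ch25h higher (Benjamini-Hochberg adjusted p = 9.56e-07) and Hmgcs1 lower (adjusted p = 0.000794), and the adjusted p of Hmgcs1 ranged from 2.93e-05 to 0.0739 over its alternatives. The number of calls in edgeR depended on RVO replicate 2, and more genes were called without this sample. Its levels of Hmgcs1, Fdft1, Srebf2 and Abca1 were the highest of the RVO samples and nearest to the control samples. Without it, edgeR called Ch25h higher and Hmgcs1, Fdft1, Srebf2 and Abca1 lower, with log2 fold changes of 1.58, -0.61, -0.40, -0.61 and -0.41. The number of all genes called then rose from 563 to 6257, and without any 1 of the other samples it was 0 to 29. Lens genes, such as crystallins, summed to 4352 CPM in this sample and to 2310 CPM in control replicate 1. Their sums were 138 to 348 CPM in the other laser-treated samples and 2.79 to 23.2 CPM in the untreated samples. All laser-treated samples thus lay above all untreated samples, and the part of this in the results was not tested.

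Set side by side per length, as CPM per kilobase of annotated exons, the order of the genes changed between groups. In untreated eyes Hmgcs1 was highest at 41.1 ± 1.73 (SD, n = 3), followed by Srebf2 at 16.1 ± 1.33 and Fdft1 at 15.97 ± 0.252, which differed by less than their spread. Sqle followed at 11.6 ± 0.559, Lss at 6.33 ± 0.0502 and Abca1 at 4.45 ± 0.0826, while Idi1 at 0.187 ± 0.0556 and Ch25h at 0.166 ± 0.0873 were lowest and also within their spread. In RVO eyes Hmgcs1 at 20.2 ± 2.99 and Srebf2 at 17.5 ± 3.45 were no longer separated beyond their spread. Ch25h reached 5.19 ± 0.106, the level of Lss at 5.24 ± 0.331 and above Abca1 at 2.87 ± 0.503. The length covers all annotated exons of a gene, so that genes with long rare exons are set too low.

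The patterns of the 8 genes were also compared with all other genes over the 9 samples, as the root mean square difference of log2 CPM after each gene's mean was removed. The genes closest to Hmgcs1 included Aplp2 (0.035), and the closest to Fdft1 were Wasf3 (0.032) and Dst (0.033). For Srebf2 they were Syngr1 (0.047) and Grik5 (0.068), and for Abca1 Napepld (0.079) and Sptbn1 (0.084). For Ch25h they were Tnfaip2 (0.25) and Capg (0.29), where the median over all genes was 1.94, against 0.347 for Sqle and 0.510 for Hmgcs1. This difference grows with a gene's own SD over the samples, which was 2.04 for Ch25h, 0.069 for Sqle and 0.462 for Hmgcs1. Its size therefore does not rank how closely the 8 genes were matched. Nearest to Lss were Pcsk2 (0.036) and Ints10 (0.038), to Sqle Actr2 (0.026) and Dazap2 (0.039), and to Idi1 Gm43949 (0.17) and Epn3 (0.18). Among the 8 genes themselves, the closest pair was Fdft1 and Abca1 (0.12).

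Genes of the wider pathway were called in both directions, about as often as all genes. The lists used here include the 8 genes. Hmgcs1 and Fdft1 are thus among the synthesis genes counted as lower in both comparisons, and Lss among those in control eyes. Of 22 synthesis genes, 4 were higher and 7 lower in RVO eyes, and 6 were higher and 8 lower in control eyes, with median log2 fold changes of -0.0022 and -0.033 beside 0.01 over all genes tested in either comparison. Among all genes 27.4% were higher and 24.6% lower in RVO eyes and 27.2% and 25.2% in control eyes, and the same shares stand beside the other lists. The genes with the largest changes of the list rose. Phosphomevalonate kinase (Pmvk) had 39.2 ± 1.79 CPM in untreated, 74.5 ± 5.11 in control and 117 ± 13.6 in RVO eyes, and it was the gene of the list that was also called between RVO and control eyes (0.65 ± 0.10 SE on the log2 scale, adjusted p = 0.00989 in edgeR). This last call was marginal and was lost under 9 of 15 alternatives, among them DESeq2 size factors, the replicate block and the leaving out of any 1 sample but RVO replicate 2 (edgeR's adjusted p up to 0.0566). Ebp, a sterol isomerase, rose by 1.15 in RVO and by 0.73 in control eyes on the log2 scale. Mevalonate diphosphate decarboxylase (Mvd) rose by 0.64 in RVO and by 0.65 in control eyes, and Mvk rose by 0.57 and 0.67. Between RVO and control eyes Mvd was at -0.03 and Mvk at -0.11, both not called. Tm7sf2, a sterol reductase, rose by 0.74 in control eyes and was at 0.17 and not called in RVO eyes. With GC and length trends removed, Mvd was at 0.022 and Mvk at 0.073 in RVO eyes and neither was called (edgeR's adjusted p = 0.878 and 0.647, the highest over the alternatives of each), while Pmvk was still called at 1.06 in RVO and 0.47 in control eyes. In RVO eyes the calls of Mvd and Mvk were also lost without untreated replicate 1. That of Mvd was lost without untreated replicate 2 and that of Mvk without untreated replicate 3 or RVO replicate 3. Their values in control eyes were not followed over the alternatives. Along the pathway the calls in RVO eyes went both ways, with Hmgcs1 lower, Mvk, Pmvk and Mvd higher, Fdft1 lower and Sqle without a call. The summed level of the 22 genes was 1101 to 1108 CPM in untreated, 1005 to 1024 in control and 966 to 982 in RVO samples, and this sum includes Hmgcs1.

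Of 17 genes of SREBP control and cholesterol uptake, 6 were higher and 4 lower in RVO eyes, and 7 were higher and 3 lower in control eyes, with medians of 0.04 and 0.11. Insig1, which retains SREBP in the membrane and is itself a target of SREBP, fell by 0.63 in RVO eyes (standard error 0.14, edgeR's adjusted p = 0.00524) and had a value of -0.09 in control eyes. Its call was lost with library size only (-0.42, edgeR's adjusted p = 0.0268, the highest over the alternatives) and without any 1 untreated sample, RVO replicate 1 or RVO replicate 3. The very low density lipoprotein receptor gene (Vldlr) was the largest fall of the list, from 460.2 ± 15.3 to 289 ± 18.1 CPM in control and 238 ± 26.1 CPM in RVO eyes, and with GC and length trends removed its log2 values of -0.92 in RVO and -0.65 in control eyes were -0.47 and -0.30 and still called. Npc2, which carries cholesterol out of lysosomes, rose by 1.12 in RVO and 0.66 in control eyes. Srebf1 rose by 0.76 in control and by 0.69 in RVO eyes. Mbtps2, one of the proteases that cut SREBP, fell by 0.75 in RVO and by 0.52 in control eyes, although 28.9% of its 50-base windows were shared with other genes. With GC and length trends removed, Srebf1 in control eyes was at 0.23 (edgeR's adjusted p = 0.0101) and Mbtps2 in RVO eyes at -0.040 (adjusted p = 0.712). Neither was then called, and these p were the highest over the alternatives of each. The values of Srebf1 in RVO and of Mbtps2 in control eyes were not followed over the alternatives.

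Of 15 genes of efflux, cholesterol esters and oxysterols, 4 were higher and 3 lower in RVO eyes, and 6 were higher and 2 lower in control eyes, with medians of 0.15 and 0.05. Abcg1, an efflux pump as Abca1 is, fell by 0.43 in RVO eyes (standard error 0.07, edgeR's adjusted p = 0.000784) and had -0.13 in control eyes. With library size only these values were -0.21 and not called (edgeR's adjusted p = 0.0232, the highest over the alternatives) and 0.042. Nr1h2, which encodes LXR beta, rose by 1.001 in RVO and 0.73 in control eyes. With GC and length trends removed it was still called at 0.38 in RVO eyes, while its value of 0.089 in control eyes was not called. Soat1, which stores cholesterol as esters, rose in RVO eyes from 25.1 ± 1.14 to 46.9 ± 1.64 CPM and was called against control eyes as well (0.61 ± 0.07 SE on the log2 scale, adjusted p = 0.00731 in edgeR). The call against control eyes was lost under 6 of 15 alternatives, which were the replicate block (edgeR's adjusted p = 0.0314) and the leaving out of any 1 sample but RVO replicate 2 (up to 0.0538). Star, a cholesterol carrier of mitochondria, fell by 0.61 in RVO and by 0.45 in control eyes. The calls of Star were lost under 7 of 15 alternatives in RVO eyes (library size only, GC and length trends removed, and without any 1 untreated sample, RVO replicate 1 or RVO replicate 3, edgeR's adjusted p up to 0.0327) and under 4 in control eyes (up to 0.0358), where untreated replicate 2 was the sample it turned on. Cyp46a1, which makes 24-hydroxycholesterol in neurons, rose by 0.44 in control eyes, a call lost in the fit of all 9 samples and without untreated replicate 2, and with GC and length trends removed the value was -0.11 and not called. Apoe passed in no comparison in the main test, with -0.24 in RVO and -0.13 in control eyes, but was called lower in both with GC and length trends removed (-0.86 and -0.73), and without RVO replicate 2 in RVO eyes. Between RVO and control eyes, 0 of the uptake genes and 1 gene of each other list were called. The adjusted p of Insig1 was 0.0269 and that of Abcg1 0.0131 there in edgeR, so neither passed, although the fit of all 9 samples, DESeq2 and the fit without RVO replicate 2 called both lower.

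**Figure D4:**
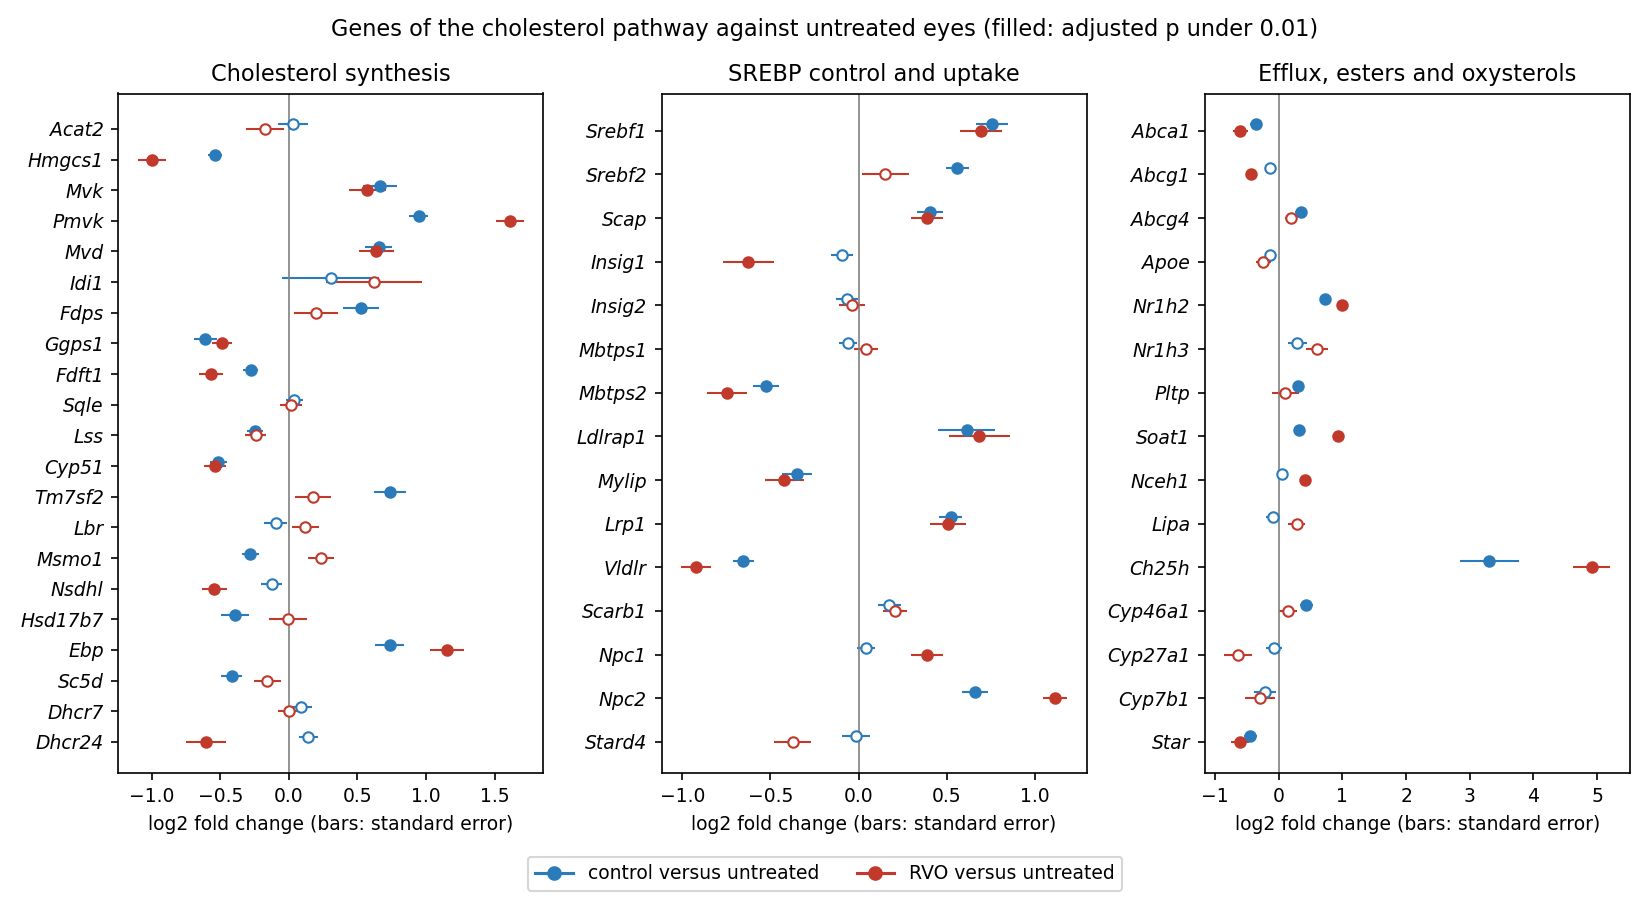
Log2 fold changes against untreated eyes (x axis, bars are standard errors) of genes of synthesis, of SREBP control and uptake and of efflux, esters and oxysterols (named on the y axes), for control (blue) and RVO eyes (red). Filled points have an adjusted p under 0.01, and the x scale differs between panels. Each list holds points on both sides of 0, with Hmgcs1 and Pmvk at the ends of the first list in RVO eyes and Ch25h alone above 3 in the last.

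Markers of several cell types also differed between the groups. Retinal markers were high as labelled, with 8 rod genes at 90057 to 92422 CPM in sum in untreated, 59028 to 72068 in control and 48288 to 52738 in RVO samples. Of these, 7 were called lower in RVO and 5 in control eyes. Markers of Mueller glia, a main site of cholesterol synthesis in the retina, summed to 5565 to 5869 CPM in untreated, 4497 to 5137 in control and 2767 to 4088 in RVO samples. The sum turned on Glul, which had 2599 ± 87.1 CPM in untreated, 1254 ± 333 in control and 652 ± 86.9 in RVO eyes (SD, n = 3). In control eyes 3 of the 8 Mueller genes were called lower and 2 higher, Clu and Kcnj10, with a median log2 fold change of -0.056, and in RVO eyes 3 were called lower and 1 higher, with a median of -0.43. Apoe is in this list and in the efflux list. With Ch25h, the 8 monocyte and macrophage markers went up from 12.6 to 15.3 CPM in untreated to 45.2 to 61.3 in control and 105 to 124 in RVO samples, and 6 of them were called higher in RVO eyes. Of these, Ly6c2 was at 0 counts in every untreated sample. Neutrophil markers summed to 0.469 to 1.21 CPM in untreated, 8.45 to 24.8 in control and 46.8 to 105 in RVO samples, with Cxcr2, Retnlg, Mmp8 and Ly6g at 0 in untreated samples. Microglia markers went down, from 119 to 180 CPM in untreated to 71.2 to 85.9 in control and 42.1 to 79.5 in RVO samples. Endothelial markers in sum were highest in control eyes, with 314 to 351 CPM against 165 to 169 in untreated and 143 to 262 in RVO samples. This sum turned on Kdr, which had 128 ± 2.93 CPM in untreated, 254 ± 12.9 in control and 148 ± 51.3 in RVO eyes. Between RVO and control eyes 0 of the 8 endothelial genes were called. The log2 values there were below 0 in 6 of them and above 0 in 2, Pecam1 and Cdh5. The sums of pigment epithelium markers overlapped between all groups, with 547 to 604 CPM in untreated, 487 to 562 in control and 394 to 736 in RVO samples. Single genes of this list went both ways. Against untreated eyes, Rpe65 was called lower and Rdh5 higher in both RVO and control eyes. Lrat and Rgr were called lower in control eyes only, and Best1, Ttr, Tyrp1 and Pmel in neither. Oligodendrocyte markers summed to 65.7 to 79.7 CPM in untreated, 83.8 to 88.4 in control and 54.9 to 82.1 in RVO samples. The part of these cell types in the results was not tested, and in bulk retina fewer cells of a type and less RNA per cell cannot be told apart.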

How the data were processed

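RNA of 9 pools of retinas was sequenced as 50-base single reads from stranded poly-A libraries. The authors mapped reads with STAR 2.5.2b to the mouse genome with Gencode vM11 (GRCm38), counted them per gene with featureCounts (Subread 1.5.1) and deposited raw counts. How reads matching several genes and strand were handled is not given in the sources used here. Of 48679 listed names, 92 were spike-in controls with 0 counts, and 46372 matched 1 gene of GENCODE vM21, which gave the coordinates.

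Counts were analysed with edgeR 4.0.16 in R 4.3.3 in a separate fit per pair of groups (filterByExpr, TMM, quasi-likelihood test), with Benjamini-Hochberg adjustment over all genes tested and a threshold of 0.01. These fits gave biological coefficients of variation of 13.8% (RVO and untreated), 7.49% (control and untreated) and 14.4% (RVO and control). Replicates differed by more than sampling noise (chi-square per degree of freedom 3.34 to 59.5). The procedure was also run on simulated counts. These had the same dispersion for all genes and no outlying sample, so they cannot show how it performs with a sample such as RVO replicate 2. Intervals of count ratios cover counting error only. P-values measure the spread between pools.

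The members and lists were chosen with earlier results of these data known. Named pathway genes were Insig1, Apoe and Abcg1, and per list and comparison up to 3 further genes with the largest change among those called. Mvk was named after its values were seen. For each member, the 2 genes with the closest pattern were named. A few genes that these rules name, or that the lists hold, are not reported here or drawn, although the counts of the lists include them. Alternatives were DESeq2 size factors in edgeR, library size only, no filter, at least 1 CPM in 3 samples, a fit of all 9 samples, DESeq2 1.42.0, the replicate number as a block, a threshold of 0.05 and each sample left out. Removal of GC content and length trends was chosen after seeing the data.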

Additional observations from a re-analysis of the deposited data

How the results depend on the processing

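Over all alternatives, the falls of Hmgcs1 and the rises of Ch25h against untreated eyes and the fall of Fdft1 in RVO eyes kept their direction and their call, although not their size (Hmgcs1 in RVO eyes was -0.64 with GC and length trends removed). For the counts of genes called higher and lower, the following moved by more than 1.5 times. With library size only, RVO versus untreated eyes gave 3 synthesis genes lower, 2 genes of SREBP control and uptake lower, and 7 efflux genes higher and 0 lower, and control versus untreated eyes gave 1 member, 3 synthesis genes and 0 efflux genes lower. In the fit of all 9 samples, control versus untreated eyes gave 2 members, 5 synthesis genes and 0 efflux genes lower and 3 efflux genes higher. At a threshold of 0.05, 4 efflux genes were lower there. With GC and length trends removed, 1 member was higher and 2 lower there, 4 synthesis genes lower, 3 uptake genes higher and 3 efflux genes higher. The share of called genes that were higher moved to 68.5% and 70.4% with library size only.

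Between RVO and control eyes the counts depended on the test. All genes called numbered 563, but 892 with library size only, 3309 with no filter, 3853 in the fit of all 9 samples, 4037 with DESeq2 and 5836 at a threshold of 0.05, and the share higher, 81.0%, was 47.4%, 47.5%, 46.1% and 50.7% in the last 4. Members higher and lower were 1 and 0 with library size only, 1 and 1 with no filter, in the fit of 9 and with DESeq2, and 1 and 3 at 0.05. Synthesis genes were 2 and 4 with no filter, 2 and 5 in the fit of 9 and with DESeq2, and 3 and 6 at 0.05, and 0 were higher with DESeq2 size factors, at least 1 CPM, or GC and length trends removed. Genes of SREBP control and uptake were 1 and 0 with library size only, 1 and 1 with no filter, 2 and 4 in the fit of 9, 1 and 4 with DESeq2 and 2 and 6 at 0.05. Efflux genes were 2 and 0 with library size only, 2 higher with no filter, 3 and 1 in the fit of 9, 2 and 1 with DESeq2 and 4 and 1 at 0.05. The cause was not tested.

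Without 1 sample each, the number of all genes called was 6008 to 10491 (RVO versus untreated), 6915 to 8115 (control versus untreated) and 0 to 6257 (RVO versus control, highest without RVO replicate 2). In this order, members higher were 1, 2 and 0 to 1 and lower 2 to 3, 2 to 4 and 0 to 4. Synthesis genes higher were 2 to 5, 5 to 6 and 0 to 5 and lower 6 to 7, 6 to 8 and 0 to 6. Uptake genes higher were 2 to 7, 6 to 7 and 0 to 2 and lower 2 to 6, 2 to 3 and 0 to 7. Efflux genes higher were 3 to 5, 3 to 5 and 0 to 4 and lower 1 to 5, 1 to 2 and 0 to 6.

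Log2 values that changed sign were not called at 0.01 after the change. For control versus untreated eyes, Insig1 was 0.079, Abcg1 0.042 and Apoe 0.042 with library size only, and Cyp46a1 was -0.11 with GC and length trends removed. For RVO versus untreated eyes, Sqle was -0.015 in the fit of 9, -0.0069 without RVO replicate 2 and -0.032 to 0.068 over all left-out samples. Srebf2 was -0.34 with GC and length trends removed (edgeR's adjusted p = 0.041, range over its alternatives 0.0368 to 0.946) and -0.0062 to 0.25 without 1 sample, the lowest without RVO replicate 2. For control versus untreated eyes, Sqle was -0.013 to 0.078 without 1 sample, below 0 without untreated or control replicate 2. For RVO versus control eyes, Sqle was 0.013 with library size only and -0.094 to 0.011 without 1 sample, above 0 without control replicate 2. Lss was there 0.044 with library size only, 0.056 with GC and length trends removed and -0.070 to 0.045 without 1 sample, above 0 without control replicate 1 or RVO replicate 3.

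RVO and control eyes were fellow eyes, but the labels do not say that pools with the same number share mice, and deviations of same-numbered samples had correlations of -0.13, -0.15 and 0.07. With the replicate number as a block, all genes called were 8216, 8409 and 0 (7227 at an unadjusted p under 0.05), 0 synthesis and 0 efflux genes were higher between RVO and control eyes, and the members' counts were as before.

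Depth limits Idi1 and the untreated level of Ch25h, with at most 30 and 4 counts per sample.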
